A study of Mus musculus with 25 samples.

Results

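Transcripts of 10 genes of the calcineurin pathway were examined in cultured neonatal mouse cardiac myocytes. They were the catalytic subunits Ppp3ca, Ppp3cb and Ppp3cc, the regulatory subunit Ppp3r1, the inhibitors Rcan1 and Rcan2, and the transcription factors Nfatc1, Nfatc2, Nfatc3 and Nfatc4. The genes were taken by name, each with the probe set annotated to that gene alone, and all 10 had exactly 1 such probe set on the Affymetrix Mouse Gene 1.0 ST array. The probe sets were 10496338 (Ppp3ca), 10417895 (Ppp3cb), 10421293 (Ppp3cc), 10374415 (Ppp3r1), 10440993 (Rcan1), 10445325 (Rcan2), 10459944 (Nfatc1), 10489961 (Nfatc2), 10574962 (Nfatc3) and 10415396 (Nfatc4). They are 10 of 19938 genes with a probe set of their own and lie among 35557 probe sets. All 10 had a mean log2 value of 5 or more over the 25 arrays, so that no member was left out as dim. TG myocytes came from transgenic mice that overexpress CHF1/Hey2, a hairy-related transcriptional repressor, in the myocardium under the mlc2v promoter, which is active in ventricular myocytes. WT myocytes came from mice without the transgene. In serum free medium, 5 WT and 6 TG cultures were measured, and 7 of each genotype after 24 hours in 20% fetal bovine serum, a hypertrophic stimulus. Each array held RNA of 1 culture, and the sources used here do not tie the cultures to litters, so each p rests on the spread among cultures that may share animals. The strain, the exact age of the newborn mice and the number of transgenic lines were not given in the sources used here.

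Calcineurin is a phosphatase that is switched on by calcium and calmodulin. It pairs a catalytic subunit with a regulatory subunit that binds calcium, and it removes phosphates from NFAT proteins, which then enter the nucleus and turn on their target genes. In cardiac myocytes this route is a well known driver of hypertrophy. The Rcan proteins bind calcineurin and restrain it, and the short transcript of Rcan1, which starts within the gene, is itself turned on by NFAT, so that it is widely used as a readout of calcineurin activity.

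Promoters in the RefSeq tables (build GRCm38.p6) were searched on both strands for the letters GGAAA, the core that NFAT proteins bind, and for the E box CACGTG, which is bound by Hey factors and by many other proteins of the same class. In the 250 bases before the start, GGAAA (or TTTCC, the same motif on the other strand) occurred at least 1 time in 55.6% of 32851 promoters and 3 or more times in 6.39%. The E box, which reads the same on both strands, occurred in 6.02%, and a related motif of the same class, CACGCG on either strand, in 7.62%. Of the 10 genes, 7 were matched, with 12 promoters, of which 7 held the NFAT core, 2 held the E box and 3 held the related motif. The 4 promoters shown here belong to the 3 genes that followed the myocyte markers from culture to culture in both sets of arrays, and both starts of Rcan1 are given because the short and the long transcript differ in their start. Each is printed from 5′ to 3′ on the strand of the gene, with the NFAT core (on either strand) and the E box in capitals, and none of these matches overlap.
Rcan1, internal start, chr16:92400079-92400328, minus strand: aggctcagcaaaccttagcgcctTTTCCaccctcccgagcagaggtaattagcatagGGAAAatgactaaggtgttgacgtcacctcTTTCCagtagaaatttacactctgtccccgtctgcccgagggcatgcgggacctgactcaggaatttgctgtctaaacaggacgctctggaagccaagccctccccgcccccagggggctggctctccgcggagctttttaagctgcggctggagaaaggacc
Rcan1, upstream start, chr16:92466170-92466419, minus strand: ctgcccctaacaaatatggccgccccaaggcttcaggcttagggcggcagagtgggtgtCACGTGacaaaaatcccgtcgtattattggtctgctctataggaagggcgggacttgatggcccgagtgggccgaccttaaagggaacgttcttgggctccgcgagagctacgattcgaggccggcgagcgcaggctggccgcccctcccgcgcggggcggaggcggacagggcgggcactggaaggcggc
Rcan2, first start, chr17:43801102-43801351, plus strand: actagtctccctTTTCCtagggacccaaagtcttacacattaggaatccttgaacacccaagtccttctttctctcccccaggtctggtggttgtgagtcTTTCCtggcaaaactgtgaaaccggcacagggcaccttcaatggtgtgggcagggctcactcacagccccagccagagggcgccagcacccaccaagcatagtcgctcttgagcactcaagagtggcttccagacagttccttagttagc
Nfatc2, first start, chr2:168601658-168601907, minus strand: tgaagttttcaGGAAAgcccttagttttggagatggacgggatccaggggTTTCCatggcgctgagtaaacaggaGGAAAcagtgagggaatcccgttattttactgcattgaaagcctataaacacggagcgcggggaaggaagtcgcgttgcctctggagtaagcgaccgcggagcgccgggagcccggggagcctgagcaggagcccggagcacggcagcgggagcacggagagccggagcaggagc
The internal Rcan1 start had 3 matches to the NFAT core and none to the E box, and the upstream start, 66091 bases away, had 1 match to the E box and none to the core. The Rcan2 promoter shown held 2 and the Nfatc2 promoter shown 3 matches to the NFAT core, each the most of that gene. The other 2 Rcan2 promoters in the table held 0 and the other Nfatc2 promoter held 1. The single probe set of Rcan1 gives 1 value per array, so the short and the long transcript were not told apart. The Ppp3r1 promoter held no match to any of the 3 motifs. A match describes the letters and does not show binding.

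The authors deposited log2 values made with Robust Multichip Analysis (RMA), and arrays have no counting depth, so their number limits the precision. The medians of the 14 arrays with serum were 5.21 to 5.36 and their SDs over probe sets 2.54 to 2.6, against medians of 4.99 to 5.09 and SDs of 2.1 to 2.14 in the 11 arrays without serum. Because of this difference in scale, each comparison of genotypes stayed within 1 set. Arrays of 1 group correlated at 0.985 to 0.996. Hey2, the gene of the transgene, was higher in every TG than in every WT array, by a log2 of 1.58 without serum (unadjusted p = 6.47e-05, adjusted p = 0.853 in limma) and 1.81 with serum (adjusted p = 0.00972). The adjusted test without serum thus did not call the transgene itself, so a member that did not pass there may still differ. Of 10 cardiac myocyte markers, among them Tnnt2, Actc1 and Myh6, all were measured, and their mean per array ran from 10.8 to 11.9 without serum and from 11.3 to 12.3 with serum. Markers of other cells were measured too, with a mean log2 value of 11.8 without serum for the fibroblast collagen Col1a1 and of 3.61 for the lymphocyte gene Cd3d. RMA values have no true 0. The methods state that the purity of each preparation was checked by staining for sarcomeric myosin. Without serum, TG no serum replicate 5 and WT no serum replicate 2 had the lowest myocyte marker means, 10.8 in both. With serum, WT serum replicates 3 and 4 (11.3 and 11.4) and TG serum replicate 6 (11.4) stood lowest.

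Without serum, no member of the pathway differed between TG and WT myocytes beyond the adjusted threshold. In limma, 0 of 10 passed an adjusted p under 0.05, as did 0% of all 35557 probe sets, and 1 of 10 had an unadjusted p under 0.05, against 5.64% of all. The mean was higher in TG myocytes for 8 of 10 members, against 45.3% of all probe sets, and the median log2 difference of the members was 0.165 against -0.00835 over all probe sets. The members were measured on the same arrays, so their directions are not independent. WT no serum replicate 2 alone was the lowest WT array in 8 of them. Ppp3r1, the regulatory subunit, had log2 values of 7.29, 7.03, 7.26, 7.40 and 7.33 in the 5 WT arrays, and a lowest, median and highest value of 7.34, 7.48 and 7.61 in the TG arrays. Each of the 6 TG arrays exceeded the WT mean, but the lowest of them was below the highest WT array, so the groups overlapped. The log2 difference was 0.21 (SE 0.067, 95% confidence interval 0.064 to 0.36), or 1.16-fold, and limma gave it an adjusted p of 0.853 (unadjusted p = 0.00906). Ppp3r1 and Rcan1 are genes that the study itself picked out from these cultures, and their direction here is no separate evidence.

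Rcan1, the feedback inhibitor, had log2 values of 9.61, 9.32, 9.75, 9.99 and 9.73 in the WT arrays without serum, and 9.26, 10.01 and 10.27 as the lowest, median and highest of the TG arrays. The TG arrays spread on both sides of the WT arrays, with 4 above and 2 below the WT mean. The log2 difference of Rcan1 was 0.21 (SE 0.19, 95% confidence interval -0.21 to 0.62, adjusted p = 0.915 in limma). Rcan2, a relative of Rcan1 that also inhibits calcineurin, had 8.28, 7.19, 8.17, 8.39 and 8.20 in the WT arrays and a lowest, median and highest TG value of 7.29, 8.57 and 8.76. A single WT array, replicate 2, lay about 1 log2 unit below the others, and TG replicate 5 was nearly as low. The log2 difference of Rcan2 was 0.22 (SE 0.30, adjusted p = 0.942 in limma), and it ran from 0.0078 without WT replicate 2 to 0.42 without TG replicate 5. For Rcan1 these 2 settings gave 0.12 and 0.33.

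Among the NFAT factors without serum, Nfatc2 had the widest difference. Its log2 values were 6.11, 5.66, 6.02, 6.20 and 6.05 in the WT arrays, and 5.66, 6.40 and 6.82 as the lowest, median and highest in the TG arrays. The groups overlapped, with 5 of 6 TG arrays above the WT mean. The log2 difference was 0.30 (SE 0.18, adjusted p = 0.887 in limma), 1.23-fold. Nfatc1, known for its role in the heart valves and in the endocardium, was at 6.41, 6.24, 6.28, 6.24 and 6.30 in WT arrays and at 6.14, 6.23 and 6.25 as the lowest, median and highest of the TG arrays. All 6 TG arrays were below the WT mean, with a log2 difference of -0.076 (SE 0.040, adjusted p = 0.878 in limma), and the groups overlapped. Nfatc3 and Nfatc4, widely expressed NFAT factors that have both been tied to hypertrophy in mice, differed by 0.056 (SE 0.082) and -0.10 (SE 0.10) on the log2 scale. The catalytic subunits Ppp3ca, Ppp3cb and Ppp3cc, of which Ppp3cc is best known from testis, differed by 0.18 (SE 0.12), 0.093 (SE 0.065) and 0.15 (SE 0.14). None of the 10 members had TG and WT arrays that did not overlap, against 0.402% of all probe sets.

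**Figure D1:**
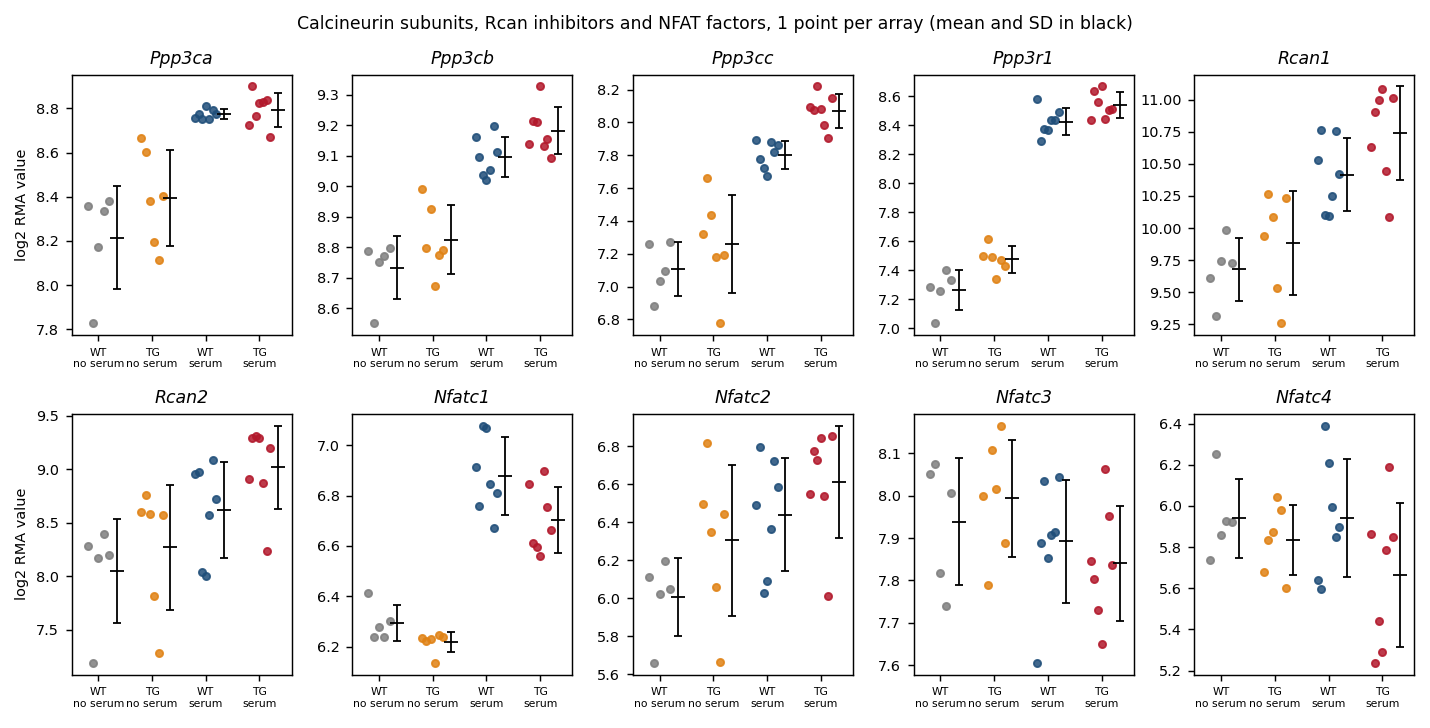
Log2 RMA value (vertical axis, its own range in each panel) of the 10 genes in the 4 groups on the horizontal axis, with 1 point per array and the mean and SD in black. WT no serum replicate 2 was the lowest of its group in 8 genes and the highest in Nfatc3 and Nfatc4, and the arrays with and without serum stand on different scales.

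With serum, the catalytic subunit Ppp3cc was the member that set TG and WT myocytes farthest apart relative to its spread, and no member passed the adjusted test. In limma, 0 of 10 passed an adjusted p under 0.05, against 0.00844% of all probe sets, and 2 of 10 had an unadjusted p under 0.05, against 10.7% of all. Ppp3cc had a lowest, median and highest log2 value of 7.67, 7.82 and 7.895 in WT arrays and of 7.904, 8.08 and 8.22 in TG arrays. All 7 TG arrays were above all 7 WT arrays, by a narrow gap, and Ppp3cc was the 1 member of 10 whose groups did not overlap, against 0.256% of all probe sets. The log2 difference was 0.27 (SE 0.058, 95% confidence interval 0.14 to 0.39), or 1.205-fold, and limma gave it an adjusted p of 0.185 (unadjusted p = 0.000349). It did not pass the adjusted test under any alternative run, the lowest adjusted p being 0.0861 with dim probe sets left out and the highest 0.611 with the culture number as a block.

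Ppp3r1 had a lowest, median and highest log2 value of 8.29, 8.43 and 8.58 in WT arrays with serum and of 8.43, 8.51 and 8.67 in TG arrays. All 7 TG arrays were above the WT mean, but the groups overlapped. Its log2 difference was 0.11 (SE 0.057, adjusted p = 0.5 in limma). Ppp3ca and Ppp3cb, the catalytic subunits usually found in heart, differed by 0.019 (SE 0.045) and 0.085 (SE 0.050).

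Rcan1 with serum had a lowest, median and highest log2 value of 10.1, 10.4 and 10.8 in WT arrays and of 10.1, 10.9 and 11.1 in TG arrays, and 6 of 7 TG arrays were above the WT mean. Rcan2 had 8.001, 8.72 and 9.09 in WT arrays and 8.24, 9.20 and 9.31 in TG arrays, and again 6 of 7 TG arrays were above the WT mean. In both genes the lowest TG array was replicate 6, and the groups overlapped. The log2 differences were 0.32 (SE 0.16, adjusted p = 0.5 in limma), or 1.25-fold, for Rcan1 and 0.40 (SE 0.21, adjusted p = 0.508), or 1.32-fold, for Rcan2. Without TG serum replicate 6 they were 0.43 and 0.53, and the adjusted test was still not passed.

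For the NFAT factors with serum, Nfatc1 had a lowest, median and highest log2 value of 6.67, 6.85 and 7.08 in WT arrays and of 6.56, 6.66 and 6.90 in TG arrays. Of the TG arrays, 6 of 7 were below the WT mean, and the groups overlapped. The log2 difference was -0.17 (SE 0.078, unadjusted p = 0.0422, adjusted p = 0.448 in limma). Nfatc4 had 5.596, 5.90 and 6.39 in WT arrays and 5.24, 5.78 and 6.19 in TG arrays, a log2 difference of -0.28 (SE 0.16, adjusted p = 0.547 in limma) with overlapping groups. Nfatc2 differed by 0.17 (SE 0.15) and Nfatc3 by -0.052 (SE 0.077). In all, 7 of 10 members had the higher mean in TG myocytes, against 43.5% of all probe sets, with a median log2 difference of 0.0987 against -0.0186 over all probe sets. Here too the members share arrays, so their directions are not independent.

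**Figure D2:**
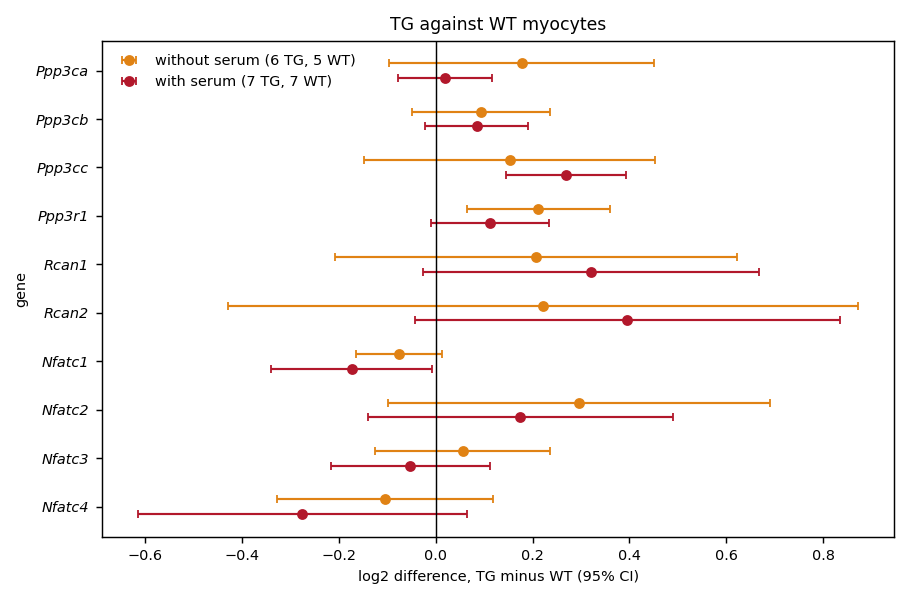
Log2 difference of TG minus WT myocytes (horizontal axis) for each gene (vertical axis), without serum (6 TG and 5 WT arrays) and with serum (7 and 7), with bars for the 95% confidence interval before adjustment. The interval leaves out 0 for Ppp3r1 without serum and for Ppp3cc and Nfatc1 with serum, and none of the 3 passed the adjusted test.

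The effect of the transgene was then compared between the sets. The difference of the TG effect between serum and no serum passed for 0 of 10 members in limma, against 0.00281% of all probe sets, and 0 of 10 had an unadjusted p under 0.05, against 4.26% of all. In log2 values it was widest relative to its error for Ppp3ca, at -0.16 (SE 0.12, 95% confidence interval -0.41 to 0.095, unadjusted p = 0.21, adjusted p = 0.9997). For Ppp3cc it was 0.12 (SE 0.14) and for Rcan1 0.11 (SE 0.26). These intervals are wide against the TG effects themselves.

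Other genes of the pathway were described from lists of 49 genes, of which 46 were measured. In TG against WT myocytes 0 of the 46 passed the adjusted test in limma in either set, and 2 had an unadjusted p under 0.05 without serum, against 5.64% of all probe sets, and 4 with serum, against 10.7%. Neither count stands above that background. Without serum, the 2 with the smallest p were Mef2d, a transcription factor that works with NFAT, with a log2 difference of 0.20 (SE 0.068, adjusted p = 0.853), and Myoz3, a calsarcin that tethers calcineurin to the Z disc, with -0.11 (SE 0.045, adjusted p = 0.865). With serum they were Homer2, a scaffold protein that in T cells competes with calcineurin for NFAT, at 0.34 (SE 0.087, adjusted p = 0.292), and the calsarcin Myoz2 at 0.54 (SE 0.21, adjusted p = 0.397). All 7 NFAT kinases, such as Gsk3b, which the study also named, had the higher mean in TG myocytes without serum and 5 of 7 with serum, with medians of 0.083 and 0.046. Of 9 genes that calcineurin or NFAT are known to turn on, 5 were higher without serum and 6 with serum, with medians of 0.023 and 0.22. Those with the smallest p were the cytokine genes Tnf and Il6 without serum, at -0.11 (SE 0.092) and -0.16 (SE 0.15), and with serum Nppb, which encodes a natriuretic peptide of the stretched heart, at 0.46 (SE 0.20, adjusted p = 0.444) and the slow myosin Myh7 at 0.47 (SE 0.24, adjusted p = 0.504). Tnf and Il6 were dim, with mean log2 values under 5 in both genotypes without serum.

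Means of cell type markers were compared between TG and WT myocytes as well, and no marker passed the adjusted test. With serum, 9 of 10 myocyte markers were higher in TG myocytes, with a mean log2 difference of 0.246 over all 10. The exception was Myl7, at -0.48 (SE 0.24, adjusted p = 0.499 in limma), which was also lower without serum, at -0.31 (SE 0.30). All 8 endothelial markers, such as Cdh5, and all 6 epicardial and mesothelial markers, such as Upk3b, were lower, with mean differences of -0.305 and -0.304. All 5 measured lymphocyte markers, of cells not expected in these cultures, were lower too, with a mean difference of -0.0873. Of all probe sets, 43.5% had the higher mean in TG myocytes with serum and 45.3% without serum. The myocyte marker mean ran from 11.3 to 12.2 in WT and from 11.4 to 12.3 in TG arrays with serum, the endothelial mean from 5.77 to 6.73 and from 5.38 to 6.75, and the epicardial mean from 7.93 to 8.74 and from 7.82 to 8.52. Without serum the myocyte markers differed by 0.050 on average, with 8 of 10 higher, the epicardial markers by -0.302, with 6 of 6 lower, the macrophage markers by -0.221, with 6 of 6 lower, and the endothelial markers by -0.103, with 7 of 8 lower. The lymphocyte markers differed by -0.0158 there, with 4 of 5 lower. In such bulk samples fewer cells of a type and less RNA per cell cannot be told apart.

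The members were therefore set against the mean of the 10 myocyte markers across cultures, within groups, in a step added after the data had been seen. Rcan1, Rcan2 and Nfatc2 rose with the marker mean in both sets, and Nfatc4 fell with it among the arrays with serum. Without serum 5 of 10 members had a rising slope past the adjusted threshold in limma, against 5.25% of all probe sets, and 0 of 10 had a falling one, against 5.95%. With serum 3 of 10 had a rising slope, against 6.77%, and 2 of 10 a falling one, against 8.18%. The slope gives the log2 change of a gene for each log2 unit of the marker mean. For Rcan2 it was 1.26 (SE 0.049, adjusted p = 3.46e-07) without serum and 1.22 (SE 0.071, adjusted p = 2.14e-07) with serum. For Rcan1 it was 0.76 (SE 0.092, adjusted p = 0.000458) and 0.90 (SE 0.11, adjusted p = 8.02e-05), and for Nfatc2 0.72 (SE 0.087, adjusted p = 0.000438) and 0.85 (SE 0.075, adjusted p = 6.45e-06). These 3 genes thus followed the myocyte markers from culture to culture in both sets. Each slope was fitted to WT and TG arrays together around their group means, and slopes of each genotype alone were not fitted. Hey2 itself had slopes of 0.75 (SE 0.25, adjusted p = 0.0852 in limma) without and 0.60 (SE 0.30, adjusted p = 0.213) with serum. TG no serum replicate 5 and TG serum replicate 6 also had the lowest Hey2 values of their groups, 7.08 and 7.94. In WT no serum replicate 2, Hey2 was at 6.32, within the range of the other WT arrays. Whether the members followed the Hey2 level or the marker mean among TG arrays was not tested.

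**Figure D3:**
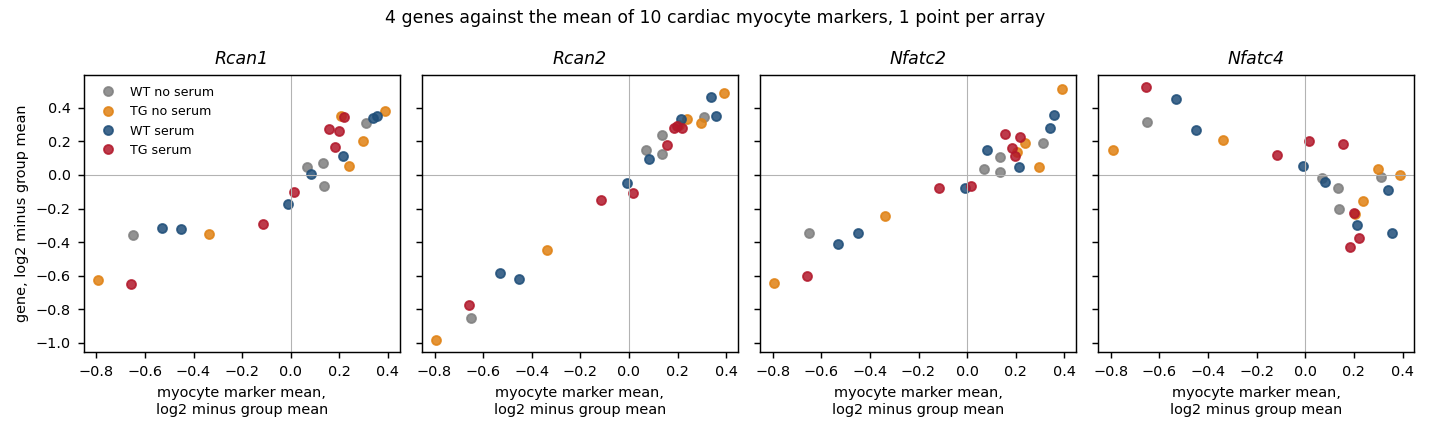
Log2 value of Rcan1, Rcan2, Nfatc2 and Nfatc4 (vertical axis) against the mean log2 value of 10 cardiac myocyte markers (horizontal axis), each as the distance from the mean of its own group, with 1 point per array and 1 colour per group. Rcan1, Rcan2 and Nfatc2 are low in the arrays with a low marker mean, such as TG no serum replicate 5 and TG serum replicate 6, and Nfatc4 tends the other way. Both of these arrays also had the lowest Hey2 value of their group.

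The slope of Nfatc4 was -0.81 (SE 0.14, adjusted p = 0.00159 in limma) with serum and -0.31 (SE 0.095, adjusted p = 0.0645) without. Nfatc1 had a slope of -0.32 (SE 0.091, adjusted p = 0.0325) with serum and of 0.032 (SE 0.052) without. With serum, the 2 highest Nfatc1 values, 7.08 and 7.07, were those of WT serum replicates 3 and 4, which also had endothelial marker means of 6.73 and 6.72. TG serum replicate 6 had the highest endothelial mean, 6.75, and an Nfatc1 value of 6.75, the third highest of the TG arrays. The highest TG value, 6.90 in TG serum replicate 5, stood beside an endothelial mean of 6.24. A slope of Nfatc1 on the endothelial mean was not tested. The call of Nfatc1 was lost when any 1 of TG serum replicates 2, 3 and 4 or WT serum replicates 2, 3, 4 and 6 was left out, with slopes from -0.31 to -0.28 and adjusted p from 0.051 to 0.105 in these 7 runs. It was also lost without WT serum replicates 3 and 4 together (-0.24, adjusted p = 0.342) and with the culture number as a block (-0.37, adjusted p = 0.0865).

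Of the calcineurin subunits, Ppp3ca (0.46, SE 0.087, adjusted p = 0.0068 in limma) and Ppp3cc (0.48, SE 0.11, adjusted p = 0.015) rose with the marker mean without serum, and neither passed with serum, where the slopes were -0.027 (SE 0.068) and 0.21 (SE 0.071, adjusted p = 0.0644). The difference of the slopes between the sets was not tested. The 2 calls rested on few cultures. That of Ppp3ca was lost without WT no serum replicate 2 (0.39, adjusted p = 0.0507), and that of Ppp3cc without TG no serum replicate 5 (0.36, adjusted p = 0.207) and with the culture number as a block (0.57, adjusted p = 0.0509). Without both of these arrays Ppp3ca (0.47, adjusted p = 0.321), Ppp3cc (0.39, adjusted p = 0.559) and Nfatc2 (0.80, adjusted p = 0.0687) did not pass, while their slopes stayed positive. Ppp3r1 had slopes of 0.18 (SE 0.069, adjusted p = 0.136) without serum and 0.094 (SE 0.086) with serum, and passed without TG no serum replicate 5 (0.34, adjusted p = 0.0169). With serum Ppp3cc passed without WT serum replicate 2 (0.24, adjusted p = 0.0448) and after quantile normalization again (0.22, adjusted p = 0.0449). Ppp3cb and Nfatc3 did not pass in either set.

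**Figure D4:**
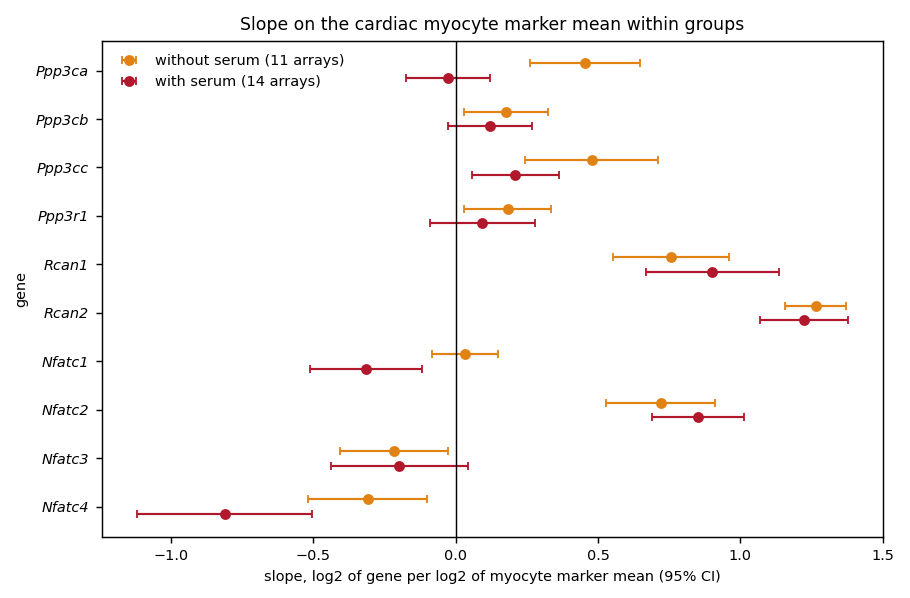
Slope of each gene (vertical axis) on the mean of 10 cardiac myocyte markers (horizontal axis, log2 of the gene per log2 of the marker mean) within groups, over 11 arrays without and 14 with serum, with bars for the 95% confidence interval before adjustment. Rcan1, Rcan2 and Nfatc2 lie between 0.72 and 1.26 in both sets, and Nfatc4 lies lowest with serum at -0.81.

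With the marker mean as a covariate, again added after the data had been seen, the TG against WT differences with serum were 0.099 (SE 0.073) for Rcan1, 0.094 (SE 0.048) for Rcan2, -0.035 (SE 0.051) for Nfatc2 and -0.076 (SE 0.096) for Nfatc4. All were smaller in size than without the covariate, and that of Nfatc2 had turned. Ppp3cc kept 0.22 (SE 0.048, unadjusted p = 0.000501, adjusted p = 0.116 in limma). Without serum the differences were 0.17 (SE 0.071) for Rcan1, 0.16 (SE 0.038) for Rcan2, 0.26 (SE 0.067) for Nfatc2 and 0.20 (SE 0.054) for Ppp3r1. Their SEs were smaller than without the covariate, by most for Rcan2, and the lowest adjusted p of a member was 0.494. In these fits 0 of 10 members passed in either set, against 0% of all probe sets without serum and 0.0787% with serum.

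Rcan1 was then set against all genes with a mean log2 value of 5 or more, by the correlation over 25 arrays of the deviations from the group means. Each deviation was first divided by the SD of that gene's deviations within its serum set. Of 12396 genes, the most alike were Slitrk4, a membrane protein of neurons (r = 0.981), Clu, a secreted chaperone (r = 0.978), Arhgef7, an exchange factor for small GTPases (r = 0.978), Slc25a23, a mitochondrial carrier (r = 0.976), and Gnao1, a G protein subunit (r = 0.975). Nfatc2 came at rank 159 (r = 0.936) and Rcan2 at rank 180 (r = 0.933), while Nfatc4 stood at rank 11040 (r = -0.741). Hey2 was at rank 1189 (r = 0.743). The points share arrays and cultures, and the correlations are given as a description. Slitrk4 had mean log2 values of 8.13 ± 0.59 (SD, n = 5) in WT and 8.48 ± 0.97 (SD, n = 6) in TG arrays without serum, and of 8.997 ± 0.774 (SD, n = 7) and 9.66 ± 0.81 (SD, n = 7) with serum.

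The effect of serum was described by the position of each gene within its array, as the percentile of its value among the 35557 probe sets. Arrays with and without serum were on different scales, so serum and separate handling of the sets cannot be told apart, and more than 1 in 2 probe sets passed, 58% in WT and 59.9% in TG myocytes. In WT myocytes 5 of 10 members passed the adjusted test in limma, 3 higher with serum, against 28.8% of all probe sets, and 2 lower, against 29.2%. In TG myocytes 5 of 10 passed, 2 higher, against 29.8%, and 3 lower, against 30.1%. Both counts are near the background and are no result about the members. Of 5 lymphocyte markers, of cells not expected in these cultures, 4 passed in each genotype, 2 higher and 2 lower. Among them Cd3d differed by 12.4 percentile points in WT and 13.2 in TG myocytes, and Cd3e by -10.6 and -11.4.

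The member with the smallest p was Ppp3r1, which stood higher with serum in both genotypes. Its percentiles without serum were 76.5, 74.1, 76.5, 78.0 and 77.2 in WT arrays, and with serum 82.7, 84.1 and 85.2 as the lowest, median and highest. No array with serum reached down to those without. The difference was 7.43 percentile points (SE 0.59, adjusted p = 3.84e-10 in limma) in WT and 6.00 (SE 0.56, adjusted p = 4.45e-09) in TG myocytes, where the 6 arrays without serum spanned 77.4 to 80.4 and the 7 with serum 83.7 to 85.8. Of all probe sets, 24.3% in WT and 31.1% in TG myocytes moved at least as far, in either direction. Ppp3cc was higher by 3.09 points (SE 1.12, adjusted p = 0.0218) in WT and 4.07 (SE 1.06, adjusted p = 0.0022) in TG myocytes. In WT myocytes its call was lost without WT no serum replicate 2 or 3, where the difference was as low as 2.51 and the adjusted p as high as 0.0755. Ppp3cb was lower, at -0.87 points in WT (SE 0.35, adjusted p = 0.0394) and -0.83 in TG myocytes (SE 0.34, adjusted p = 0.0362), but on the log2 scale as deposited it was higher with serum by 0.36 in both. Ppp3cb moved little, since 82.3% of all probe sets in WT and 82.9% in TG myocytes moved at least as far. Its call was also lost with the culture number as a block (adjusted p = 0.0744 and 0.0765). It was lost in 9 of 12 WT runs without 1 array (WT no serum replicates 1, 3, 4 and 5, WT serum replicates 2, 3, 4, 5 and 7; adjusted p up to 0.0913) and in 6 of 13 TG runs (TG no serum replicates 1 and 3, TG serum replicates 1, 5, 6 and 7; adjusted p up to 0.103).

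Of the NFAT factors, Nfatc3 stood lower with serum in both genotypes. Its percentiles in WT arrays were 84.6, 85.1, 82.5, 81.7 and 84.1 without serum and 75.5, 79.1 and 80.0 as the lowest, median and highest with serum. In TG arrays they ran from 82.1 to 85.2 without and from 76.0 to 80.2 with serum, so that the groups did not overlap in either genotype. The difference was -4.85 points (SE 0.82, adjusted p = 2.38e-05 in limma) in WT and -5.93 (SE 0.77, adjusted p = 7.26e-07) in TG myocytes, whereas on the deposited log2 scale it was -0.046 and -0.15 and did not pass. At least as large a shift in percentile, in either direction, was seen in 38.8% of all probe sets in WT and 31.5% in TG myocytes. Nfatc1 was higher by 2.21 points in WT myocytes (SE 0.68, adjusted p = 0.00765), and in TG myocytes the difference was 1.17 (SE 0.64, adjusted p = 0.122). Nfatc4 was lower in TG myocytes, at -5.71 points (SE 1.63, adjusted p = 0.00453), but on the deposited log2 scale it did not pass (-0.17, adjusted p = 0.278). In WT myocytes its difference was -3.80 (SE 1.72, adjusted p = 0.0629), against 0.00016 on the deposited log2 scale. It passed without WT serum replicate 3 (-4.63, adjusted p = 0.0229) or 4 (-4.303, adjusted p = 0.043), when only probe sets of 1 gene were ranked (-4.52, adjusted p = 0.0363), and in log2 values after quantile normalization of the 25 arrays (-0.33, adjusted p = 0.0483).

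Groups with and without serum did not overlap in percentile for 3 of 10 members in WT myocytes (Ppp3cc, Ppp3r1 and Nfatc3) and for 2 of 10 in TG myocytes (Ppp3r1 and Nfatc3), against 35.9% and 35.2% of all probe sets. Rcan1 had a percentile difference of 0.71 (SE 0.68, adjusted p = 0.388) in WT and 1.12 (SE 0.65, adjusted p = 0.142) in TG myocytes, and passed in TG myocytes without TG serum replicate 6 (1.48, adjusted p = 0.0447). Rcan2 differed by 0.98 (SE 2.42) and 2.39 (SE 2.30) points and Ppp3ca by 0.78 (SE 0.73) and -0.44 (SE 0.69). Nfatc2 differed by 0.97 (SE 1.94) and -0.66 (SE 1.85). The signs of these 3 were not stable. Without WT no serum replicate 2 the WT values were -1.12 for Rcan2, -0.037 for Ppp3ca and -0.12 for Nfatc2, and the TG values of Ppp3ca and Nfatc2 turned on the deposited log2 scale. On that scale, where the arrays with serum also had the higher medians, Rcan1 passed in WT (0.74, adjusted p = 0.000949) and TG myocytes (0.85, adjusted p = 0.000121). So did Ppp3ca (0.56, adjusted p = 4.39e-06) and Nfatc2 (0.43, adjusted p = 0.0266) in WT, and Ppp3ca (0.40, adjusted p = 0.00015), Rcan2 (0.75, adjusted p = 0.00904) and Nfatc1 (0.49, adjusted p = 3.72e-07) in TG myocytes.

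**Figure D5:**
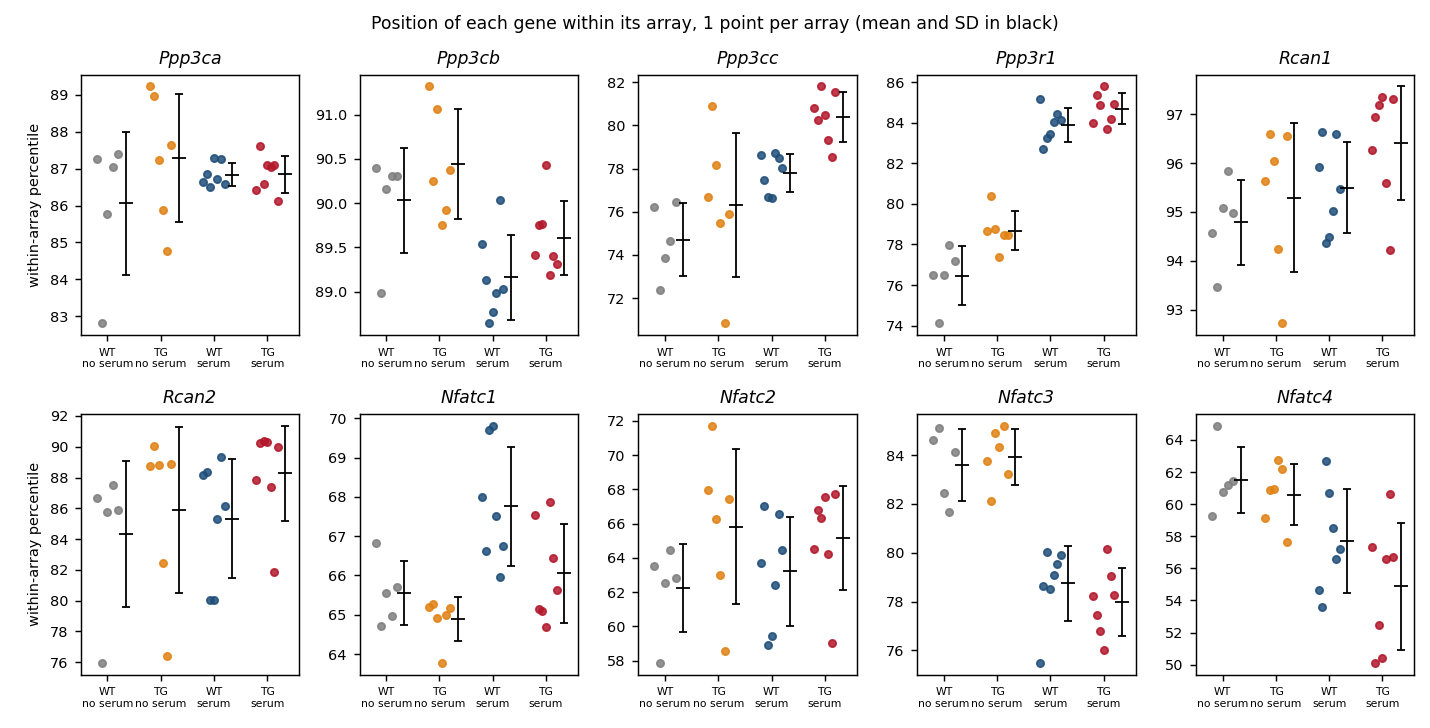
Within-array percentile (vertical axis, its own range in each panel) of the 10 genes in the 4 groups on the horizontal axis, with 1 point per array and the mean and SD in black. Ppp3r1 with serum lies above and Nfatc3 with serum below all arrays of the same genotype without serum, though on the deposited log2 scale the difference of Nfatc3 did not pass.

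Among other genes of the pathway, 4 that passed with the smallest p in WT myocytes were Trpc6, a calcium channel upstream of calcineurin in heart, Fkbp1a, the partner of FK506 in blocking calcineurin, and the NFAT kinases Gsk3b and Csnk1d. Trpc6 was higher with serum by 17.6 percentile points (SE 1.72, adjusted p = 1.1e-08 in limma) in WT and 18.1 (SE 1.64, adjusted p = 2.58e-09) in TG myocytes. Without serum Trpc6 was dim, with a mean log2 value of 4.35 in both genotypes. Gsk3b was lower, with differences of -2.79 (SE 0.43) and -2.71 (SE 0.41), and Fkbp1a higher by 1.95 (SE 0.29) and 1.81 (SE 0.28). Csnk1d was higher by 2.81 (SE 0.49) in WT and 2.48 (SE 0.47) in TG myocytes. By smallest p the fourth in TG myocytes was Akap5, an anchor for calcineurin, higher by 8.53 (SE 1.30). It was also higher in WT myocytes, by 5.35 (SE 1.37), and both genes passed the adjusted test in both genotypes. Of 9 target genes, 5 had the higher mean percentile with serum in WT and 6 in TG myocytes. In limma 3 passed the adjusted test as higher and 1 as lower in WT myocytes, against 28.8% and 29.2% of all probe sets. In TG myocytes 3 passed as higher and 0 as lower, against 29.8% and 30.1%. The counts of higher genes are near the background. Ptgs2, the inducible cyclooxygenase, was higher by 7.21 (SE 1.49) and 8.46 (SE 1.42) points, the endothelin precursor Edn1 by 11.4 (SE 2.86) and 9.005 (SE 2.72), and Il6 by 15.3 (SE 4.50) and 22.6 (SE 4.27). Il6 was dim throughout, with mean log2 values of 3.99 without and 4.66 with serum in WT, and 3.83 and 4.89 in TG myocytes. Myh7 was lower, at -3.12 (SE 1.13, adjusted p = 0.0218) in WT myocytes. The share of all probe sets that passed was as large as given above.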

How the data were processed

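RNA of 25 cultures was hybridised to Affymetrix Mouse Gene 1.0 ST arrays. The authors processed the arrays with RMA in Affymetrix Expression Console 1.1, per the labels and the methods, and deposited 1 table of log2 values for 35557 probe sets. Whether the arrays with and without serum were normalized together is not given in the sources used here. Genes were named through the platform annotation, which gives 21789 probe sets 1 symbol, 1621 several and 12147 none. The number of per-sample columns left out was 0.

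TG and WT arrays were compared within each serum set with limma 3.58.1 in R 4.3.3 (1 mean per group, eBayes), with Benjamini-Hochberg adjustment of p across the 35557 probe sets and calls at an adjusted p under 0.05. The difference of the TG effect came from 1 fit over 25 arrays, and serum was compared by limma on within-array percentiles. Slopes and covariate fits used the mean of 10 myocyte markers and were added after the data had been seen. Probe sets of every member were named whatever their values, and of other pathway genes up to 4 past the test or else the 2 with the smallest p. Of 98 list genes 94 were measured, Emr1 under its current symbol Adgre1. The members and lists were chosen with earlier results of these data known. The fits were run on simulated data with noise drawn independently for each probe set and array. Deviations that probe sets share within an array were not simulated, so that run cannot speak to calls under them. Promoters were read from RefSeq tables (GRCm38.p6), and protein sequences were not used here. Culture numbers of the sample titles were not used to pair the groups in the main fits. Alternatives were other normalizations, scalings, array weights, a variance trend, filters, a replicate block and leaving out each array. Figures were drawn with matplotlib 3.10.9 in Python 3.11.15.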

Additional observations from a re-analysis of the deposited data

Results flagged for a closer look

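In each of the 40 sets of arrays given by a gene and a group, the lowest and the highest array were compared with the rest, and 5 sets held an array set apart by a gap that chance gives in about 1 in 20. WT no serum replicate 2 was apart in Rcan2, at a log2 value of 7.1931 against 8.1703 to 8.3928 in the other WT arrays, and in Ppp3cb, at 8.5502 against 8.7524 to 8.7987. TG serum replicate 6 was apart in Rcan2, at 8.2397 against 8.8693 to 9.3102, and in Nfatc2, at 6.0115 against 6.5359 to 6.8548. TG no serum replicate 4 was apart in Nfatc1, at 6.136 against 6.223 to 6.247. The first 2 arrays also had the lowest mean of myocyte markers in their groups, at 10.848 and 11.419. The third had a mean of 11.2, above TG no serum replicate 5.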

How the results depend on the processing

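TG against WT differences of the 10 genes stayed under the threshold in every alternative run, and 1 changed sign, Nfatc2 with serum (-0.034797 with the marker mean as a covariate). Of the alternatives other than leaving out 1 array, 110 of 110 values of these genes without serum and 109 of 110 with serum kept direction and side of the threshold. On log2 values as deposited, serum differences turned for Ppp3cb (0.36477) and Nfatc4 (0.00016409) in WT and for Ppp3ca (0.40069), Ppp3cb (0.35655) and Nfatc2 (0.30971) in TG myocytes. When 1 array was left out, percentile differences spanned -0.037064 to 1.1111 for Ppp3ca, -1.1186 to 1.8615 for Rcan2 and -0.12485 to 1.6844 for Nfatc2 in WT, and -2.121 to 0.51368 for Nfatc2 in TG myocytes.

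The number of probe sets passing in TG against WT with serum was 3, and it was 141 in 1 fit over 25 arrays, 5 with centred arrays, 5 with dim probe sets left out and 28 with the marker mean as covariate. Without serum it was 0. For the difference of the TG effect it was 1, against 0 on percentiles, 6 with array weights and 0 after quantile normalization. Serum counts were 20617 in WT and 21298 in TG myocytes, against 13153 and 13544 when probe sets of 1 gene were ranked and 10535 and 10810 when those at 5 or more were ranked, with fewer probe sets tested. Slope counts were 3983 without serum and 5315 with serum, against 851 and 3119 without the 2 arrays farthest from the median marker mean, with fewer arrays. Other causes were not tested. When each array was left out in turn, counts spanned 0 to 0 without serum, 1 to 3 with serum, 0 to 4 for the difference of the TG effect, 19430 to 20390 and 20491 to 20985 for serum, and 1818 to 3992 and 3008 to 5958 for the slopes.

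The culture numbers were not used to pair the groups in the main fits. Same-number residuals of TG and WT arrays correlated at -0.449 to 0.15 without serum and -0.36 to 0.0621 with serum. Those of arrays with and without serum correlated at -0.236 to 0.157 in WT and -0.23 to 0.194 in TG myocytes. The culture numbers are those of the sample titles. The study numbers the cultures without serum otherwise in a figure legend, so a shared number in the titles may not mean a shared culture. These correlations, and the fits with the culture number as a block, therefore cannot exclude a pairing. With the culture number as a replicate block, 1 probe set passed in TG against WT with serum, 0 for the difference of the TG effect and 2225 for the slopes with serum. The number of arrays limits all of these, since arrays give no counting error.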
